A study of Mus musculus with 4 samples.

Results

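Claudins are the proteins that form the strands of the tight junction, and 9 claudin genes of the mouse colon (Cldn1, Cldn2, Cldn3, Cldn4, Cldn7, Cldn8, Cldn12, Cldn15 and Cldn23) are described here across sorted epithelial populations. They were chosen by gene name: every probe that the array files assign to one of these genes and that is not a control was taken. This gave 10 probes, 2 for Cldn1 and 1 for each other gene, of 41174 probes for 28307 genes. After a filter on dim probes, 8 of the 9 genes entered the test and Cldn1 did not.

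The RNA came from normal colon of adult mice that carry the Lgr5_EGFP-ires-CreERT2 allele, in which the locus of the stem cell receptor Lgr5 drives GFP. Cells of colonic crypts were sorted by flow cytometry into GFP-positive cells and cells with a high level of the surface protein CD24, which the submitters describe as a subset of goblet cells, so both populations carry the knock-in. RNA of both was hybridised together to 4 two-colour arrays, as 2 replicates of a first array (Lgr5-GFP in Cy3, CD24hi in Cy5) and a dye swap, with 300 ng of total RNA labelled. The labels give neither the number of animals nor pooling, so the p-values rest on a spread between samples that may be technical only.

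The sort markers ran against the labels. The RNA labelled Lgr5-GFP held less Lgr5 (log2 ratio of -3.41 ± 0.29, SD, n = 2; limma, adjusted p = 6.23e-04), and more Cd24a, which encodes CD24 (2.12 ± 0.30; limma, adjusted p = 7.79e-04). Lgr5 had a value on 3 arrays, with replicate 1 resting on its first array, and Cd24a on all 4. Lgr5 was well above background on all 4 arrays in only 1 of the populations, which is enough for the filter on dim probes. Directions below follow the labels, and each higher becomes lower if the populations are exchanged. Since every replicate had a slide to itself, the slide and the replicate cannot be told apart. On the dye swap of replicate 1, 75.3% of gene spots were marked as outliers by the scanner software and left out, against 0.231% to 0.512% on the other 3 arrays. Correlations between arrays turned to 1 direction ran from 0.721 to 0.958 across genes, which are not independent replicates.

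Claudins span the membrane of adjoining epithelial cells and set which ions and how much water pass between them. Some form pores, such as the cation channels of claudin-2 and claudin-15 in the intestine, and others, such as claudin-1, claudin-3, claudin-4 and claudin-8, tighten the barrier. Each tight junction holds a mixture of family members, and the mixture in the colon changes from the crypt base to the luminal surface.

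The probes decide which transcripts the values refer to, so those of the 4 genes called different and of Cldn7 are shown. Their positions are those of the array annotation, build mm9. The Cldn7 probe is printed whole, 60 bases, because its coordinates cover 310 bases of the genome and so run across an exon junction. Of the others the first 30 bases are printed.
Cldn7, chr11:69780780-69781089, + strand: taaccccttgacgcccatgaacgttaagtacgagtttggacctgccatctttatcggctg
Cldn8, chr16:88561135-88561194, - strand: aaagatgttgtccatatgtatttcaactcc
Cldn23, chr8:36888151-36888210, - strand: ttaaaacgtccctgaacgtacagtattcta
Cldn15, chr5:137451465-137451524, + strand: actacacacatgcacacattctcaacaaaa
Cldn2, chrX:136345244-136345303, + strand: agtgtggaacatctgtgaccaaggtgttgt

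The 250 bases before the RefSeq start (build GRCm38.p6) of both pore-forming members are shown because their genes were called in the same direction. Capitals mark TTTATG, letters found in binding sites of the CDX factors of the intestine.
Cldn2, chrX:139800558-139800807, + strand: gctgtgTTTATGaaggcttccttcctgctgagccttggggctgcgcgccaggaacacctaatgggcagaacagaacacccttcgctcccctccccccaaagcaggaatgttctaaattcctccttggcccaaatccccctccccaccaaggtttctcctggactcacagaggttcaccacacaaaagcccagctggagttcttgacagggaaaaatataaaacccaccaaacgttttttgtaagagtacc
Cldn15, chr5:136967619-136967868, + strand: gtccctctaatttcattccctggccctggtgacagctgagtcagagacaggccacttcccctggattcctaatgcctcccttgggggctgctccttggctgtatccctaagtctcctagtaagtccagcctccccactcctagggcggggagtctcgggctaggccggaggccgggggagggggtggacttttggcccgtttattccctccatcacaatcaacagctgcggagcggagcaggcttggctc
The letters searched, on both strands, were TTTATG for CDX, GTTAAT for HNF1, CTTTGAT for TCF/LEF and AGATAA for GATA factors. They occur in 10.8%, 6.43%, 3.21% and 9.99% of 32851 windows of the same length. Windows of 7 of the 9 claudins were matched by symbol, and Cldn8 and Cldn23 were not. The Cldn2 window holds TTTATG at position -244 from the start, the Cldn1 window holds GTTAAT at -241, and no other letters of the 4 kinds were found in the 10 windows of the members. A match describes these windows only.

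Among the tested claudins, Cldn23, Cldn15 and Cldn2 were higher in RNA labelled Lgr5-GFP and Cldn8 was lower. Cldn8 had the largest difference, 2.43-fold, and Cldn23, Cldn15 and Cldn2 differed by 1.73-fold, 1.58-fold and 1.40-fold. Cldn3, Cldn4, Cldn7 and Cldn12 did not pass the test, and Cldn1 was not well above background. In bulk RNA, fewer cells of a type and less RNA per cell cannot be told apart. The ratios compare the populations for 1 probe at a time and say nothing of the level of one claudin against another.

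The test is limma on the mean log2 ratio of 2 replicates against 0, with p-values adjusted over all genes. It called 6985 of 14802 tested genes (47.2%), of which 3205 (21.7%) had a higher and 3780 (25.5%) a lower level in RNA labelled Lgr5-GFP. Of the 8 tested claudins, 3 were called higher and 1 lower, a total share close to that of all genes. With replicate 1 read from its dye swap alone, 8.5% of 5659 genes were called higher and 8.22% lower, with 0 claudins higher and Cldn8 lower. With replicate 1 read from its first array alone, 26.9% of genes were called higher and 30.8% lower, with 4 claudins higher, the additional one being Cldn3, and Cldn8 lower. Their median log2 ratio was 0.16, against -0.07 for all genes tested, and its sign turned (-0.08) when arrays were only centred, where that of all genes was -0.27. The median size of the ratio, with its sign left out, was 0.37 for the claudins and 0.38 for all genes. Of the 14802 genes, 9143 had no value on the dye swap of replicate 1, so for them that replicate rests on its first array. Of the 8 tested claudins, 7 had a value there, so claudins and all genes are not compared on the same arrays throughout.

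**Figure D1:**
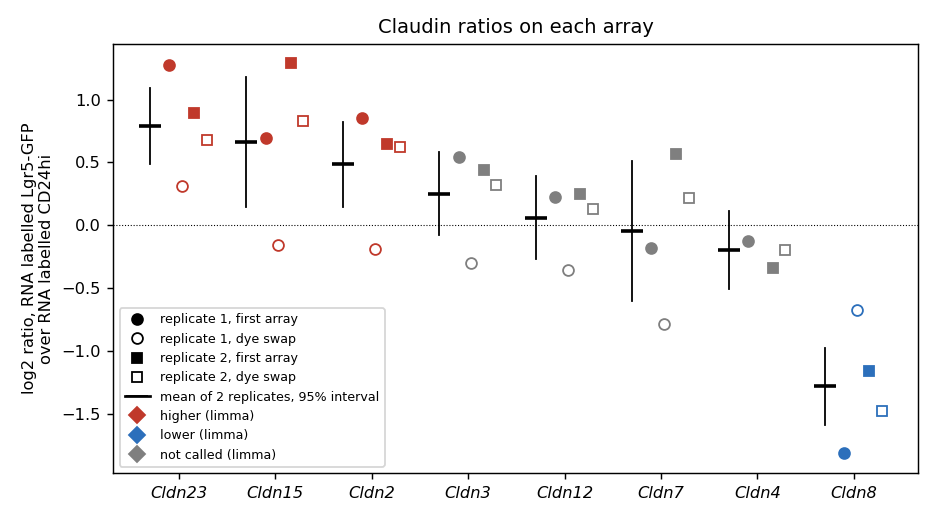
Log2 ratio between the populations, Lgr5-GFP over CD24hi as labelled (vertical axis), for the 8 tested claudins on each of 4 arrays, with circles for replicate 1, squares for replicate 2 and open symbols for dye swaps. Black bars give the mean of 2 replicates with its 95% interval from limma, colours give the call, and the open circle of replicate 1 is the lowest of the 4 points for 6 of the 7 genes that have it.

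Cldn2, a pore for cations and water of leaky epithelia, had log2 ratios of 0.86 (first array) and -0.19 (dye swap) in replicate 1, and of 0.65 and 0.62 in replicate 2. It was therefore higher in RNA labelled Lgr5-GFP on 3 of 4 arrays, and the arrays of replicate 1 differed in sign. Its mean was 0.48 ± 0.21 (SD, n = 2; 95% interval 0.14 to 0.82; limma, adjusted p = 0.0332). With the replicate as a block over 4 arrays the value was the same and the call was lost (limma, adjusted p = 0.0509). It was called under 9 of 18 alternatives and positive under all 18, with log2 ratios of 0.22 to 0.75. Some of these alternatives could not move the ratio of a gene with a single probe, only its p-value. With the first array of replicate 1 left out it was 0.22 and not called (limma, adjusted p = 0.784), and without the dye swap of that replicate it was 0.74.

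Cldn15, a cation pore through which sodium passes between intestinal cells, had log2 ratios of 0.70 and -0.16 in replicate 1 and 1.29 and 0.83 in replicate 2, first array before dye swap. The replicate means of 0.27 and 1.06 had the same sign, and the spread between them was nearly as large as the mean. That mean was 0.66 ± 0.56 (SD, n = 2; 95% interval 0.15 to 1.18; limma, adjusted p = 0.0456). The call was kept under 6 of 18 alternatives, and the log2 ratio ran from 0.34 to 0.99 over all of them. With the first array of replicate 1 left out it was 0.45 and with the dye swap of replicate 2 left out it was 0.78, both not called, and it was 0.88 without the dye swap of replicate 1. The spot signal of Cldn15 before normalization ran from 8424 to 31057 in RNA labelled Lgr5-GFP and from 5066 to 12729 in the other, well above background on every array. The 31057 was that of the dye swap of replicate 1, and the other 3 arrays reached 13729.5.

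Cldn8, a barrier-forming claudin that limits sodium back-leak in the distal colon, had negative log2 ratios on all 4 arrays. They were -1.81 (first array) and -0.67 (dye swap) in replicate 1, and -1.16 and -1.47 in replicate 2. The replicate means of -1.24 and -1.32 lay close together, although the arrays within each replicate did not. The mean was -1.28 ± 0.05 (SD, n = 2; 95% interval -1.58 to -0.97; limma, adjusted p = 0.00129). Cldn8 was called lower under all 18 alternatives, with log2 ratios between -1.66 and -0.99, although some of them could not move its ratio. Its spot signal ran from 142 to 1915 in RNA labelled Lgr5-GFP and from 485 to 1407 in RNA labelled CD24hi, well above background on all arrays. The 1915 was that of the dye swap of replicate 1, and the other 3 arrays reached 458.

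Cldn3, a barrier-forming claudin found along the intestine, had log2 ratios of 0.55 and -0.30 in replicate 1 and 0.44 and 0.32 in replicate 2. Only the dye swap of replicate 1 was negative. The mean of 0.25 ± 0.18 (SD, n = 2; 95% interval -0.08 to 0.58) was not called (limma, adjusted p = 0.172). Without that dye swap the log2 ratio was 0.46 and was called (limma, adjusted p = 0.0104), and on the first arrays alone it was 0.49 (limma, adjusted p = 0.0113). It was 0.04 with the first array of replicate 1 left out and 0.01 on the dye swaps alone, and it was called under 2 of 18 alternatives. The adjusted p over its alternatives ran from 0.0104 to 0.990.

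Cldn4, a barrier-forming relative encoded next to Cldn3 on chromosome 5, gave dim spots. On the 3 arrays with a usable spot its signal was 110, 91.4 and 167 in RNA labelled Lgr5-GFP and 214, 190.0 and 117 in RNA labelled CD24hi, for the first array of replicate 1 and both arrays of replicate 2. It was well above background on 3 of 4 arrays in the former RNA and on 4 of 4 in the latter. Cldn4 thus passed the filter on dim probes through RNA labelled CD24hi alone. The 4 arrays include the dye swap of replicate 1, whose spot was marked as an outlier and gave no ratio. The log2 ratios on the 3 arrays with a usable spot were -0.13, -0.34 and -0.20. All were negative, a sign that is not independent of the filter. Its mean was -0.20 ± 0.10 (SD, n = 2; 95% interval -0.51 to 0.11; limma, adjusted p = 0.245), with replicate 1 resting on its first array. It was called lower with the processed signals of the scanner software (-0.74) and with the deposited series table (-0.65), and under none of the other 13 alternatives that gave a value.

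Cldn7, which lies along the lateral membrane of intestinal cells and binds the adhesion protein Epcam, had log2 ratios of -0.18 and -0.79 in replicate 1 and 0.57 and 0.22 in replicate 2. The replicates differed in sign, at -0.48 and 0.39. Its mean of -0.05 ± 0.62 (SD, n = 2; 95% interval -0.60 to 0.51; limma, adjusted p = 0.887) had the widest interval of the 8 tested claudins, which still includes a difference of either sign. The spot signal was bright in both populations, 25956 to 45346 in RNA labelled Lgr5-GFP and 23919.6 to 44868 in RNA labelled CD24hi. Brightness therefore did not go with a narrow spread between replicates for Cldn7.

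Cldn1, a barrier-forming claudin best known from skin, has 2 probes, at chr16:26359010-26359069 and chr16:26357372-26357431 (mm9, - strand). Neither was well above background in either population, except on the dye swap of replicate 1, where both spots were marked as outliers. On the other 3 arrays the signals of the first probe were 81.8 to 144 in RNA labelled Lgr5-GFP and 89.1 to 154 in RNA labelled CD24hi. Those of the second probe were 82.3 to 142 and 79.6 to 155. No ratio is given for Cldn1, since both populations were at background.

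Cldn23, a claudin of the luminal surface of the colon, was positive on all 4 arrays. Its log2 ratios were 1.27 (first array) and 0.31 (dye swap) in replicate 1, and 0.89 and 0.68 in replicate 2. The replicate means were both 0.79. The mean was 0.79 ± 0.0038 (SD, n = 2; 95% interval 0.49 to 1.09; limma, adjusted p = 0.00464), although the arrays within each replicate were farther apart than the replicate means. Cldn23 was called under 15 of 18 alternatives, with log2 ratios of 0.50 to 1.08, and the call was lost on the dye swaps alone (0.50), without the first array of replicate 1 (0.55) and with non-uniform backgrounds kept in the background fit (0.57). Its spot signal ran from 316 to 2556 in RNA labelled Lgr5-GFP and from 328 to 843 in the other, and the 2556 was that of the dye swap of replicate 1, with at most 1224 elsewhere.

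Cldn12, a claudin that lacks the PDZ-binding end by which most of the family attach to scaffold proteins, had log2 ratios of 0.23 and -0.35 in replicate 1 and 0.25 and 0.13 in replicate 2. They lay on both sides of 0. The mean was 0.06 ± 0.18 (SD, n = 2; 95% interval -0.27 to 0.39; limma, adjusted p = 0.731), and 6 of 18 alternatives gave a ratio below 0.

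From the highest to the lowest log2 ratio, the order was Cldn23, Cldn15, Cldn2, Cldn3, Cldn12, Cldn7, Cldn4 and Cldn8. Between neighbours, Cldn2 lay above Cldn3 by 0.23 ± 0.03 and Cldn3 above Cldn12 by 0.19 ± 0.00028 (SD, n = 2 replicates). The small SD of the latter hides a wider spread over arrays. Cldn3 and Cldn12 had 0.55 and 0.23 on the first array of replicate 1, and -0.30 and -0.35 on its dye swap. Cldn4 lay above Cldn8 by 1.37 ± 0.45 over the 3 arrays where both had a value, by 1.69 in replicate 1 and 1.05 in replicate 2. The other 4 neighbouring pairs changed order between the replicates. Of all tested genes, 11.6% lay above Cldn23, 14.3% above Cldn15 and 19.6% above Cldn2, while 4.63% lay below Cldn8.

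**Figure D2:**
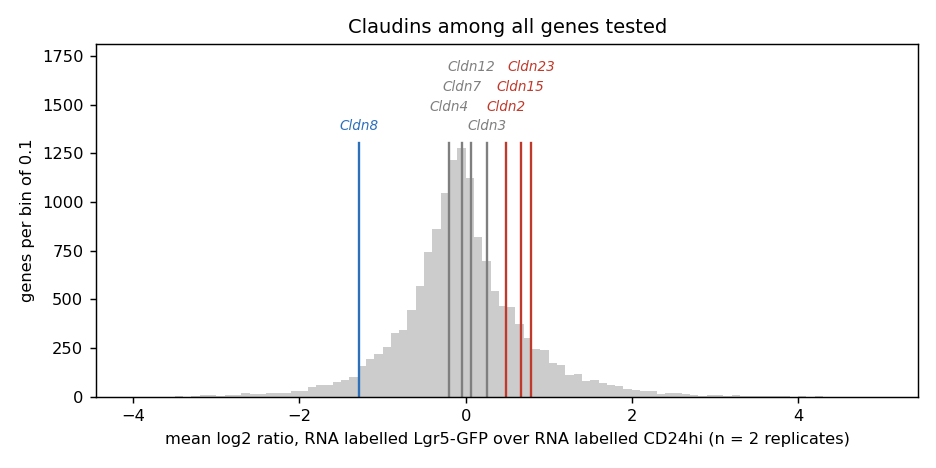
Histogram of the mean log2 ratio (horizontal axis, n = 2 replicates) of all 14802 tested genes, with the number of genes per bin on the vertical axis and a line for each tested claudin coloured by its limma call. Cldn8 lies at -1.28, toward the lower tail, and the other 7 claudins lie between -0.20 and 0.79.

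Ratios on the dye swap of replicate 1 were low across the family. That array gave the lowest value for 6 of the 7 claudins measured on all 4 arrays (85.7%), against 3560 of 5650 genes with a value on all arrays (63%). The median of these claudins was -0.30 there and 0.55, 0.57 and 0.32 on the first array of replicate 1, the first array of replicate 2 and its dye swap. Over the 5650 genes the median was also lowest there, at -0.10, against 0.04, 0.04 and 0.065 on those arrays. Cldn8, at -0.67, was instead least negative on the dye swap of replicate 1. Leaving that dye swap out moved the log2 ratio of Cldn2 to 0.74, that of Cldn23 to 1.03, that of Cldn12 to 0.21, that of Cldn8 to -1.56 and that of Cldn7 to 0.11.

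The scaling of the arrays moved the median of all genes, and single genes by unequal amounts. Centring of each array on its median, in place of loess, put the median of all genes at -0.27 and split the calls into 1825 higher and 5095 lower. With the deposited series table that median was -0.18. Relative to the median of all genes, the log2 ratio of Cldn23 was 0.86 as reported, 0.78 with centring and 0.97 with the series table. Values of Cldn15 on that footing were 0.73, 0.78 and 0.75, and those of Cldn2 were 0.55, 0.55 and 0.51. Cldn8 stood at -1.21, -1.29 and -1.49. Cldn12 was at 0.13, 0.05 and 0.16, although its ratio itself was below 0 under both other scalings.

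**Figure D3:**
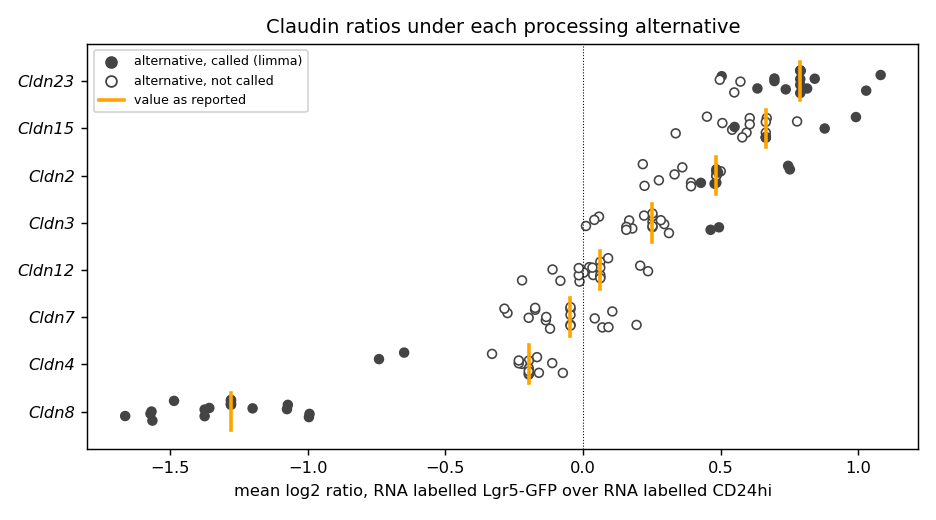
Mean log2 ratio (horizontal axis) of each tested claudin under each processing alternative that gave a test, filled where limma called it, with the reported value as an orange line. All 18 points of Cldn8 are filled and lie between -1.66 and -0.99, some of them at the same ratio. Points of Cldn15, Cldn2 and Cldn3 are filled for some alternatives only and those of Cldn7 and Cldn12 for none.

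The arrays hold 12 further claudin genes. Cldn9, Cldn13, Cldn14 and Cldn19 passed the filter, and 0 of these 4 were called by limma, nor did any have an unadjusted p under 0.05. Their log2 ratios were -0.14 ± 0.09 for Cldn9, 0.34 ± 0.55 for Cldn13, 0.04 ± 0.20 for Cldn14 and 0.08 ± 0.11 for Cldn19 (SD, n = 2). Cldn9, Cldn13 and Cldn19 had no value on the dye swap of replicate 1, so that replicate rests on its first array. Cldn13 and Cldn19 passed the filter through RNA labelled CD24hi alone. Their spots were dim, with at most 217 and 193 in that RNA on the arrays that gave a ratio. Cldn5, Cldn6, Cldn10, Cldn11, Cldn16, Cldn17, Cldn18 and Cldn22 were not tested, because their probes were not well above background on all 4 arrays in either population. In RefSeq's gene order Cldn17 is the coding gene next to Cldn8 on chromosome 16, and Cldn16 is the one next to Cldn1.

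Other proteins of the tight junction were called in both directions. Of 28 tested, 9 were higher and 7 lower, against 21.7% and 25.5% of all genes, in RNA labelled Lgr5-GFP. The median log2 ratio was 0.10 (-0.19 with arrays only centred). With the mean over the probes of a gene in place of the brightest, 8 were higher and 3 lower. Of all genes, 21.2% were then higher and 23.5% lower, so the count of lower calls depends on the probe chosen. The scaffold proteins Cgnl1 (0.88 ± 0.22), Mpdz (0.81 ± 0.23) and Pard3 (0.73 ± 0.31) and Arhgef2 (0.80 ± 0.26), a regulator of the cytoskeleton at junctions, were higher. The atypical protein kinase C Prkci (-1.26 ± 0.15), the adhesion receptor Cxadr (-1.19 ± 0.09), occludin, encoded by Ocln (-0.72 ± 0.33), and the polarity protein Pard6b (-0.60 ± 0.15) were lower. Lsr, of tricellular junctions, had 0.36 and was not called. These calls were by limma, at adjusted p of 0.0147 (Ocln) or below. That of Pard3 was lost with centring (limma, adjusted p = 0.0942) and with the series table (0.0544). The log2 ratio of Mpdz was 2.68 with the series table, and with centring that of Arhgef2 was 0.51 and that of Pard6b -0.90.

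Among 12 tested partners and proteases of claudins, 4 were higher and 3 lower, against 21.7% and 25.5% of all genes, with a median log2 ratio of 0.01 (-0.26 with arrays only centred, -0.06 with the series table). The membrane protease Prss8 (1.19 ± 0.57), the protease inhibitors Spint2 (0.78 ± 0.03) and Spint1 (0.55 ± 0.16) and the kinase Wnk4 (0.54 ± 0.09) were higher. The receptor kinase Epha2 (-2.02 ± 0.35), the tetraspanin Cd81 (-0.58 ± 0.13) and the ephrin Efna1 (-0.56 ± 0.31) were lower. Epcam, the partner of claudin-7, had -0.28 ± 0.14 and was not called (limma, adjusted p = 0.123), and the tetraspanin Cd9 had 0.24 and was not called either. The log2 ratio of Spint2 was 0.51 with centring and 1.34 with the series table. Spint1 and Wnk4 kept their sign and lost their calls with centring and with the series table.

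Of 22 tested proteins of adherens junctions and desmosomes, 1 was higher and 8 were lower, against 21.7% and 25.5% of all genes, with a median log2 ratio of -0.23 (-0.50 with arrays only centred). The nectin Nectin1 was higher (0.57 ± 0.27), and the related Nectin3 (-2.22 ± 0.30), the plakophilin Pkp1 (-1.43 ± 0.33), desmoplakin, encoded by Dsp (-1.29 ± 0.17), and the nectin-binding Afdn (-0.93 ± 0.30) were lower. Plakoglobin, encoded by Jup, had 0.39 and E-cadherin, encoded by Cdh1, had -0.34, and neither was called. Among 17 tested transcription factors reported to act on claudin genes, 1 was higher and 7 were lower, against the same shares of all genes, with a median of -0.17 (-0.44 with arrays only centred, -0.30 with the series table). Grhl1 was higher (0.83 ± 0.27), by over 1.5 times that log2 ratio with the series table. The vitamin D receptor Vdr (-1.71 ± 0.59), Gata6 (-0.94 ± 0.07), Cdx2 (-0.63 ± 0.39) and Hnf4a (-0.57 ± 0.14) were lower, and Cdx1 (0.43) and Grhl2 (-0.36) were not called. With arrays only centred, Nectin1 was no longer called, nor was it with the series table, and Cdh1 and Grhl2 were called lower. Cgnl1, Arhgef2, Prkci, Cxadr, Epha2, Nectin3, Dsp, Afdn, Jup, Grhl1, Gata6, Hnf4a and Cdx1 had no value on the dye swap of replicate 1. For these genes replicate 1 rests on its first array, unlike for the other genes named from the lists. Over the 4 lists, 15 of 79 tested genes (19.0%) were higher and 25 (31.6%) lower, against 21.7% and 25.5% of all genes. With the mean over the probes of a gene, 14 were higher and 19 lower, against 21.2% and 23.5% of all genes. These counts are read as no more than a description.

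**Figure D4:**
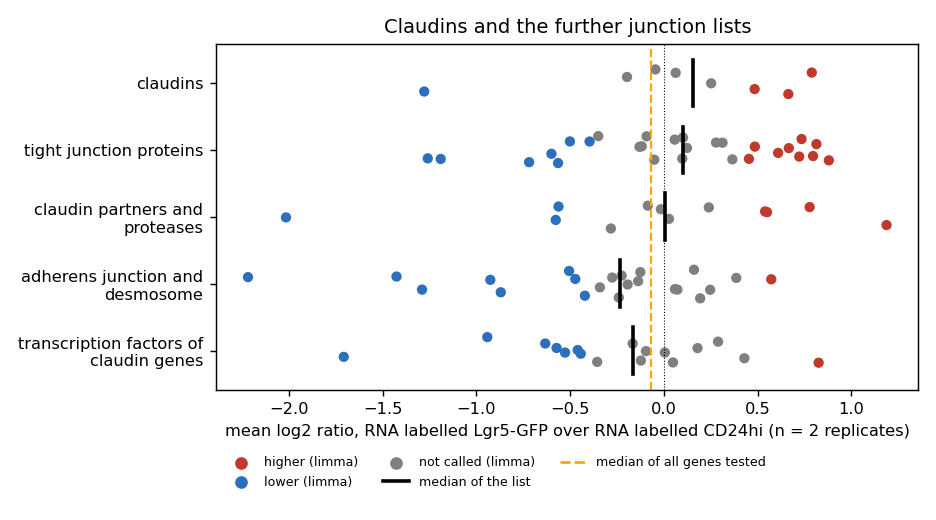
Mean log2 ratio (horizontal axis, n = 2 replicates) of each tested gene of the claudins and the 4 further lists, 1 list per row, coloured by limma call. Black bars are list medians, at 0.16 for the claudins (-0.08 with arrays only centred) and -0.23 for adherens junctions and desmosomes (-0.50 with arrays only centred), and the dashed line is the median of all genes tested, -0.07.

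Markers of cell types differed along with the claudins. Of 10 goblet cell markers tested, 7 were higher in RNA labelled Lgr5-GFP (median log2 ratio of 2.70), as were 3 of 7 absorptive colonocyte markers (0.34), 3 of 5 enteroendocrine markers (3.03), 4 of 4 tuft cell markers (2.08) and 5 of 6 deep crypt secretory markers (1.91). Of crypt base stem cell markers, 6 of 6 were lower (-2.26), and of proliferation genes 5 of 5 (-2.98). For comparison, 21.7% of all genes were called higher and 25.5% lower. The lists were not uniform. Among the goblet markers not called, Tff3 was at -0.95, Zg16 at 0.30 and Fcgbp at 0.10. The deep crypt secretory Dll1 was at -0.49 and not called. Of the enteroendocrine markers not called, Pyy had -0.94 and 2.48 in replicates 1 and 2, and Gcg had -1.69 and 2.01. The deep crypt secretory list includes Cd24a and the stem list includes Lgr5, the sort markers already used to check the labels. On the 3 arrays other than the dye swap of replicate 1, summed normalized signals of the goblet list ran from 463444 to 898386 in RNA labelled Lgr5-GFP and from 44691 to 119804 in the other, those of the absorptive list from 126590.2 to 209504 and from 22003 to 37671, and those of the stem list from 1596 to 3257 and from 7524 to 18019. Within the absorptive list, Guca2a had a log2 ratio of 3.05, and Krt20, Car1, Aqp8 and Ms4a12 had 0.996, 0.65, 0.34 and 0.13. Car4 and Slc26a3 were negative, at -0.13 and -0.49, and were not called. The summed signals of that list therefore do not describe each of its genes, and the share of each gene in the sums was not tested. Epithelial markers had a median of -0.30, with 1 of 6 called, lower, so both populations carried them. Of 10 immune markers 3 were tested and 0 called, and Ptprc, which marks all leukocytes, was not above background. Of 8 stroma and endothelium markers 2 were tested, and 1 of them, Col1a2, a collagen chain, was higher (0.44 ± 0.16; limma, adjusted p = 0.0390). Col1a2 had no value on the dye swap of replicate 1. Both tested genes were dim, with summed normalized signals of 215 to 443 in RNA labelled Lgr5-GFP and 168 to 324 in the other. The part of these differences in the claudin ratios was not tested.

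The genes most like Cldn23 and Cldn8 were found by the root mean square difference of log2 ratios over 4 arrays, among 5643 genes. Nearest to Cldn23 were Fth1, the ferritin heavy chain (difference of 0.06), Nfatc1, a transcription factor of calcium signalling (0.07), and Cables1 (0.08). Nearest to Cldn8 were Set (0.10), Gadd45b, a stress-induced gene (0.11), and Rrm2, a subunit of ribonucleotide reductase (0.14). This measures likeness of ratios on 4 arrays that share both RNAs, and nothing of function.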

How the data were processed

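RNA of 2 sorted mouse colon populations was compared on 4 two-colour arrays. Per the file headers, Feature Extraction 10.5.1.1 read the images of an Agilent scanner, and the deposited intensity values are spot means and local background medians without normalization, beside processed intensities and their log10 ratio of red over green. The deposited series table holds a log2 ratio per array whose scale and direction were found against that log10 ratio (r of 0.923 to 0.986, slopes of 2.91 to 3.30, column medians of -0.01 to 0.03), and how it was normalized is not given in the sources used. From these, background was corrected with normexp (offset 50) in limma 3.58.1 (R 4.3.3) after leaving out spots with a non-uniform background, and arrays were normalized by loess with controls and marked spots at weight 0, which were then left out. Swapped arrays were turned, and an array and its swap gave 1 ratio per replicate. Kept probes were well above background in 1 or both populations on all 4 arrays, and the brightest stood for a gene. Limma (lmFit, eBayes, two-sided) tested 2 replicates against 0 with 1 residual degree of freedom, with Benjamini-Hochberg adjustment over 14802 genes and a threshold of 0.05. Alternatives changed the background correction, scaling, spot and probe filters, gene names and the arrays used. The scripts were tested on simulated data. With only 2 replicates, and 4 arrays, precision is limited.

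The members, gene lists, tests and alternatives were chosen with earlier results of these data known. Named were all members, all other claudins, per list the called genes with the 4 largest ratios in each direction and up to 2 not called (1 such gene is not reported here), and for Cldn23 and Cldn8 the 3 nearest genes. Of the gene spots, 27041 took their name from RefSeq (GRCm38.p6) and 16338 kept the file's name. Sequences came from the array files (mm9) and from RefSeq promoters (GRCm38.p6).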

Additional observations from a re-analysis of the deposited data

Results flagged for a closer look

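Spot signals on the dye swap of replicate 1 lay far from those on the other 3 arrays for the claudins measured near background. The first Cldn1 probe had a signal of 8869.6 for the Lgr5-GFP label and 2327.1 for the CD24hi label, against at most 144 and 154 on the other arrays. The second Cldn1 probe had 918.12 for the Lgr5-GFP label, against at most 142. Cldn4 had 6941.2 and 1991.4 for the same labels, against at most 167 and 214. The scanner software marked all 3 of these spots as non-uniform or outliers, so none entered a ratio. They were 5 of 27 values tested for a sample far from the others, of which chance flags about 1 in 20. On that array the median spot signal over all genes was 4377 in RNA labelled Lgr5-GFP, against 94.2 to 164 on the others.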

How the results depend on the processing

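Cldn8 kept its direction and call under all 18 alternatives, and Cldn2, Cldn15 and Cldn23 kept their direction under all 18. Not every alternative could move these ratios. Each of these genes has 1 probe, so changes of the dim-probe filter, averaging over probes and the file's gene names left the ratio as reported. The replicate block left it the same too. Keeping marked spots and drawing the loess curve through them gave equal ratios for these genes. Claudins called higher numbered 3 as reported. They numbered 1 with processed signals, with centring on the median, with the series table, with marked spots kept and with the loess curve drawn through marked spots too, an alternative added after the data were seen, and 0 with non-uniform backgrounds kept and on the dye swaps alone. Claudins called lower numbered 1 as reported and 2 with processed signals and with the series table. All genes called numbered 1387 with non-uniform backgrounds kept, 3731 with marked spots kept and 937 on the dye swaps alone, against 6985. Of all genes, 21.7% were called higher as reported, 20.3% with processed signals, 12.3% with centring and 18.7% with the series table. That share was 9.69% with marked spots kept, 16% with the other loess curve, 5.18% with non-uniform backgrounds kept and 8.47% on the dye swaps alone. Genes called lower made up 25.5% as reported, 28.6% with processed signals and 28.7% with the series table. Further junction genes called higher numbered 1, 6, 8, 4, 0 and 7 with non-uniform backgrounds kept, centring, the series table, marked spots kept, the dye swaps alone and the other loess curve, against 15, and those called lower numbered 2 with non-uniform backgrounds kept, 14 with marked spots kept and 3 on the dye swaps alone, against 25. Of all genes, 4.19% were called lower with non-uniform backgrounds kept, 15.5% with marked spots kept and 8.1% on the dye swaps alone. Leaving out 1 array at a time gave 946 to 8542 genes called, 0 to 4 claudins higher, 1 lower under each, 0 to 20 junction genes higher and 2 to 27 lower. The shares of all genes were then 8.5% to 26.9% higher and 8.22% to 30.8% lower. Fewer genes were tested on the dye swaps alone (5657) and without the first array of replicate 1 (5659), and the share of them called was 16.6% and 16.7%, against 47.2%. The cause of these moves was not tested.

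Cldn7 and Cldn12, not called under any alternative, changed sign. The log2 ratio of Cldn7, -0.05 as reported, was 0.070 with processed signals, 0.092 with non-uniform backgrounds kept and 0.19 on the first arrays alone, and ran from -0.48 to 0.39 when an array or replicate was left out. That of Cldn12, 0.06 as reported, was -0.22 with centring, -0.013 with the series table, -0.016 with marked spots kept and with the other loess curve, and -0.11 on the dye swaps alone, and ran from -0.082 to 0.21 when an array or replicate was left out. With the replicate block over 4 arrays (consensus correlation of -0.04) 8220 genes were called, and among claudins the block changed only the call of Cldn2. Ratios of Cldn1 and Cldn4 are limited by signal near background.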
